A study of Homo sapiens with 8 samples.

Results

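The HOX cluster genes and their antisense transcripts were followed in SH-SY5Y, a widely used human neuroblastoma cell line with sympathetic neuroblast features. A gene belonged to the set if its symbol was HOXA, HOXB, HOXC or HOXD followed by a number, antisense transcripts named after such a gene included, or was HOTAIR, HOTAIRM1 or HOTTIP. The rule found 45 of the 67060 genes counted, of which 39 code for protein and 6 are non-coding. RNA was sequenced from 4 libraries called ERRg and 4 called GFP. ERRg cells had received an adenovirus encoding Flag-tagged ERRg, the orphan nuclear receptor made from ESRRG, fused to BioID, a biotin ligase used to label nearby proteins. GFP cells had received an adenovirus encoding BioID fused to green fluorescent protein and a nuclear localisation signal. Both groups therefore carried an adenovirus and a BioID protein, and both were collected 48 h after 0.5 ul of virus was given to cells at 80% confluence. The labels do not give the promoter of either construct or say whether the libraries are separate cultures, and p-values therefore measure only the spread between these libraries, which may be technical.

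HOX genes code for homeodomain transcription factors that give cells their position along the head-to-tail axis. In mammals they lie in 4 clusters, HOXA to HOXD, and paralogs in the different clusters carry the same number. Genes with low numbers lie at the 3′ end of a cluster and are switched on first and nearest the head, in response to retinoic acid and other signals, while genes with high numbers lie at the 5′ end and act further towards the tail. Polycomb complexes keep silent clusters closed, MLL complexes keep transcribed ones open, and the TALE homeodomain proteins PBX and MEIS bind DNA together with HOX proteins. Neurons and neuroblasts often keep the HOX genes that match the level of the body at which they arose.

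In short, HOXC and HOXD genes were transcribed in both groups, whereas HOXA and HOXB genes were at or near 0 reads. Of the 12 members with enough reads to test, 9 were lower in ERRg cells, among them each of the 6 tested HOXC genes. Among the 9, HOXC10 and HOXD13 passed the low-count filter through their GFP libraries. HOXD3, HOXD4 and HOXD10 did not pass the test. Of all 21993 genes tested, 35.9% were lower and 38.7% higher in ERRg cells. The 9 differences were smaller in a second fit, restricted to coding genes and with offsets for GC content, transcript length and span, in which HOXD3 and HOXD4 were higher in ERRg cells. HOXC4, HOXC5, HOXC6, HOXC8 and HOXD9 were lower in both fits. These 5 of 12 in the second fit stand close to the 41.3% of all coding genes called lower there.

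The promoter windows of HOXC4, HOXC5, HOXD8, HOXD4 and HOXD3 are shown as examples from the HOXC and HOXD clusters. In the first fit HOXC4, HOXC5 and HOXD8 were lower, and HOXD4 and HOXD3 did not pass. Ratios of neighbouring genes, given below, did not pass adjustment for any pair, although some pairs had the smallest p the test can give, 0.0286 by exact permutation. The sequences are RefSeq's on GRCh38.p14 and run from 250 bases before to 50 bases after the annotated start on the plus strand. Capitals mark the GC box, GGGCGG or its complement CCGCCC. RefSeq's table gives HOXC4 and HOXC5 the same window (chr12:54016638-54016937), which has a GC content of 51.7%. The windows of HOXD8 (chr2:176129455-176129754), HOXD4 (chr2:176151300-176151599) and HOXD3 (chr2:176157057-176157356) lie in this order along chromosome 2 and have GC contents of 71.7%, 47.3% and 58.0%.
HOXC4 and HOXC5: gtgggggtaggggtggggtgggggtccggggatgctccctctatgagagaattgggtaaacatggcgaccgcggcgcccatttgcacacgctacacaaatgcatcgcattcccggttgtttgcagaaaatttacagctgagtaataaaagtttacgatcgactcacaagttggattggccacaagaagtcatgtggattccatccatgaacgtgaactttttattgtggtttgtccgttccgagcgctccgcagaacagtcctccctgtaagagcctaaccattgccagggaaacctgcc
HOXD8: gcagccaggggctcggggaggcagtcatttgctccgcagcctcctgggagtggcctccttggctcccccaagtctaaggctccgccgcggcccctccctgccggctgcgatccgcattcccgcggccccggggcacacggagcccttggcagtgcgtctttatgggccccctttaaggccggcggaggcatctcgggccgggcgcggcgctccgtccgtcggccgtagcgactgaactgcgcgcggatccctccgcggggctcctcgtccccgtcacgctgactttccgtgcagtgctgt
HOXD4: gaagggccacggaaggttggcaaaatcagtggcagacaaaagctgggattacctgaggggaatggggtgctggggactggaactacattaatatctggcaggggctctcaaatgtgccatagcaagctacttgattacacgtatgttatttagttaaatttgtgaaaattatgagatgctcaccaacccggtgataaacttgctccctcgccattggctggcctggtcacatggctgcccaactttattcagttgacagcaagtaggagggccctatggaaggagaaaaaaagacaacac
HOXD3: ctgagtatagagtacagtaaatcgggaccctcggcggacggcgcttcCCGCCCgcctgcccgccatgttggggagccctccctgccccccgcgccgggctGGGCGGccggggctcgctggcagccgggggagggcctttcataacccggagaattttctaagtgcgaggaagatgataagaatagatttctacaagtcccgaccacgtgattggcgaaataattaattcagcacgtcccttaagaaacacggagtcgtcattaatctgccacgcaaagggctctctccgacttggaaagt

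Of these windows, the HOXD3 one held GC boxes and the others held none. Letters typical of ERR binding were then searched on both strands of the 29 windows that the table holds for the set. These windows belong to 22 members, some with several windows. Of the windows, 7 are assigned to tested genes, with the window shared by HOXC4 and HOXC5 counted for each. They follow RefSeq starts, which can differ from the starts of the gene spans given below. The HOXD3, HOXD4 and HOXD10 windows lie inside the spans of these genes. The HOXC5 window ends before the HOXC5 span begins. The table holds no window for HOXC6, HOXC8, HOXC9, HOXC10 and HOXD9, which were lower in the first fit, so these genes were not searched. The ERR element TCAAGGTCA was in 0 of the 29 and in 0.353% of all 35116 promoter windows. Its parts AAGGTCA and AGGTCA, nested in the ERR element, were also in 0 of the 29, against 3.92% and 13.8% of all windows. The repeat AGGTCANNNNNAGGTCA, a form bound by retinoic acid receptors, was in 0 of the 29 and in 0.0057% of all windows. The GC box was in 14 of the 29, against 45.0% of all windows. The absence of a match says only that these letters are not in these windows.

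The labels were checked first. ESRRG had 808 ± 73.2 CPM (counts per M gene reads, scaled by TMM) in ERRg libraries and 34.9 ± 2.34 CPM in GFP libraries (SD, n = 4 each), a log2 fold change of 4.53 (SE 0.10, adjusted p = 1.50e-17 in edgeR). Gene reads numbered 21.02 to 23.0 M per ERRg library and 27.7 to 35.5 M per GFP library. Reads in no annotated exon took a share of 46.7% ± 1.31 in ERRg libraries and 20.9% ± 3.58 in GFP libraries, and reads falling in more than 1 gene took 5.44% ± 0.415 and 12.1% ± 1.46. The expression difference was broad, with 38.7% of the 21993 genes tested higher and 35.9% lower in ERRg cells at an adjusted p under 0.05. Upper-quartile scaling gave 11033 higher and 6044 lower genes, and scaling to library totals gave 11789 and 5381. Over all genes tested, the median log2 fold change of 0.09 under TMM moved to 0.40 by upper-quartile scaling and to 0.50 by library totals. ERRg replicates 1 and 2, and likewise 3 and 4, were closer to each other than to the other pair, and the labels name no batch.

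HOXA and HOXB stood near 0 in both groups. The 15 HOXA members on chromosome 7, including HOTAIRM1, HOTTIP, HOXA10-AS and HOXA11-AS, had 5 reads in the 4 ERRg libraries together and 7 in the 4 GFP libraries, and 9 of them had none at all. No HOXA member had more than 2 reads in a library. The 10 HOXB members had 12 reads in ERRg and 18 in GFP libraries, and 5 of them had none. HOXB2, a hindbrain HOX gene, was the best covered of these with 17 reads in all 8 libraries. A count of 0 allows up to 3 reads, which corresponds to 0.113 to 0.123 CPM in an ERRg library and 0.103 to 0.123 CPM in a GFP library. Some widely used genes are listed at 0 in all libraries of this table, so a 0 is not read as absence of the RNA.

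HOXC and HOXD together took nearly all HOX reads. HOXC members summed to 3133 reads and 31.4 ± 1.84 CPM in ERRg libraries, and to 7495 reads and 68.4 ± 5.71 CPM in GFP libraries. HOXD members summed to 1589 reads and 15.9 ± 1.33 CPM in ERRg libraries, and to 3216 reads and 29.4 ± 1.72 CPM in GFP libraries. The ERRg over GFP ratio of these sums was 0.458 for HOXC and 0.541 for HOXD with TMM, and 0.607 and 0.716 with library totals. In a bulk sample, fewer cells expressing a gene and less RNA per cell cannot be told apart.

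**Figure D1:**
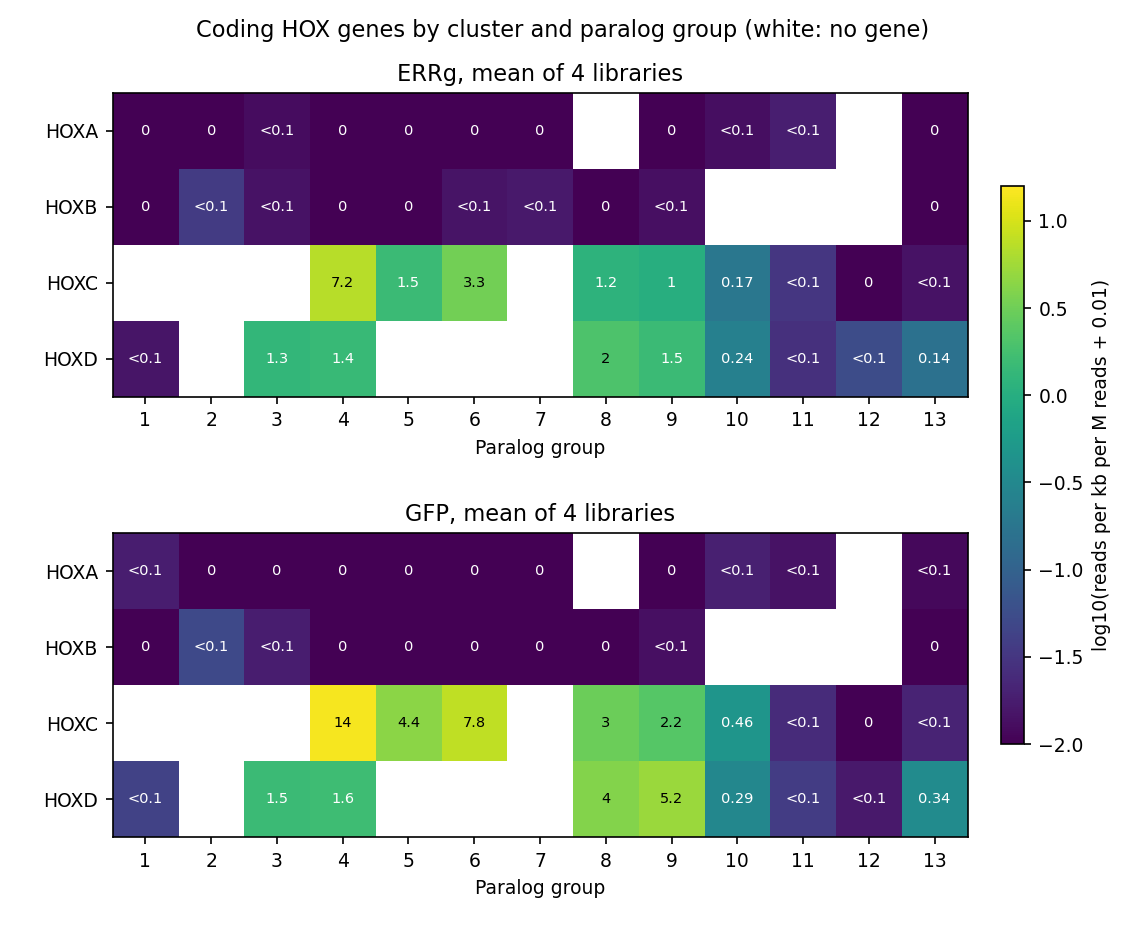
Mean level of the 39 coding HOX genes, as reads per kb of exon not shared with another gene on the same strand, per M reads, over 4 ERRg libraries (top) and 4 GFP libraries (bottom); rows are clusters, columns are paralog groups, and colour is on a log10 scale. HOXA and HOXB stay below 0.1 throughout, while HOXC4 is the highest gene in both groups, at 7.20 in ERRg and 14.2 in GFP.

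Levels can be compared along a cluster when reads are divided by the length of exon that a gene does not share. On this scale HOXC4, the 3′-most gene of its cluster, was highest in both groups, at 7.20 ± 0.308 reads per kb per M reads in ERRg and 14.2 ± 0.794 in GFP. HOXC6 followed at 3.32 ± 0.325 in ERRg and 7.77 ± 0.997 in GFP, with HOXC5 at 1.5 ± 0.205 and 4.4 ± 0.815. The place of HOXC5 depends on the length used. Divided by all exonic bases it had 0.602 in ERRg and 1.76 in GFP, below HOXC8 at 1.16 and 3.02. HOXC8 and HOXC9, at 1.16 ± 0.10 and 0.998 ± 0.315, were within their spread of each other in ERRg libraries. Levels were lower still at HOXC10, at 0.173 ± 0.0856 in ERRg and 0.458 ± 0.0654 in GFP. HOXC11 had 12 reads in all libraries, HOXC13 had 4 and HOTAIR, the long non-coding RNA between HOXC11 and HOXC12, had 2. HOXC12 and HOXC13-AS had none.

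Along HOXD the order differed between the groups. In ERRg libraries HOXD8 was highest at 2.03 ± 0.304 reads per kb per M reads, and HOXD9, HOXD4 and HOXD3 lay within their spread of one another at 1.53 ± 0.342, 1.44 ± 0.280 and 1.32 ± 0.154. In GFP libraries HOXD9 was highest at 5.22 ± 0.384, followed by HOXD8 at 4.0 ± 0.537, with HOXD4 at 1.60 ± 0.282 and HOXD3 at 1.49 ± 0.140. HOXD10 and HOXD13 were below 0.4 in either group, and HOXD1, HOXD11 and HOXD12 had 8, 8 and 7 reads over the 8 libraries.

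The low-count filter kept 12 members, 6 in HOXC and 6 in HOXD, and 33 members were not tested. Of the untested, 17 had some reads, at most 6 in a library. HOXC10 and HOXD13 passed the filter with 4 GFP and 2 ERRg libraries above it, and HOXD10 with 4 GFP and 3 ERRg libraries, while the other 9 were above it in all 8 libraries. HOXC10 and HOXD13 thus entered through the group where they are high, so their direction is not separate from the filter. In the test, 9 of the 12 were lower in ERRg cells, 0 were higher and 3 did not pass, against 35.9% of all genes called lower and 38.7% called higher. All 12 log2 fold changes were below 0, so 0 were higher at an unadjusted p under 0.05 as well, and 0 were higher with the DESeq2 test or limma-voom. Every ERRg library lay below every GFP library for the same 9 genes, against 34.6% of all genes tested. The median log2 fold change of the 12 was −1.19. These counts hold for the members that passed the filter, not for the whole set.

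**Figure D2:**
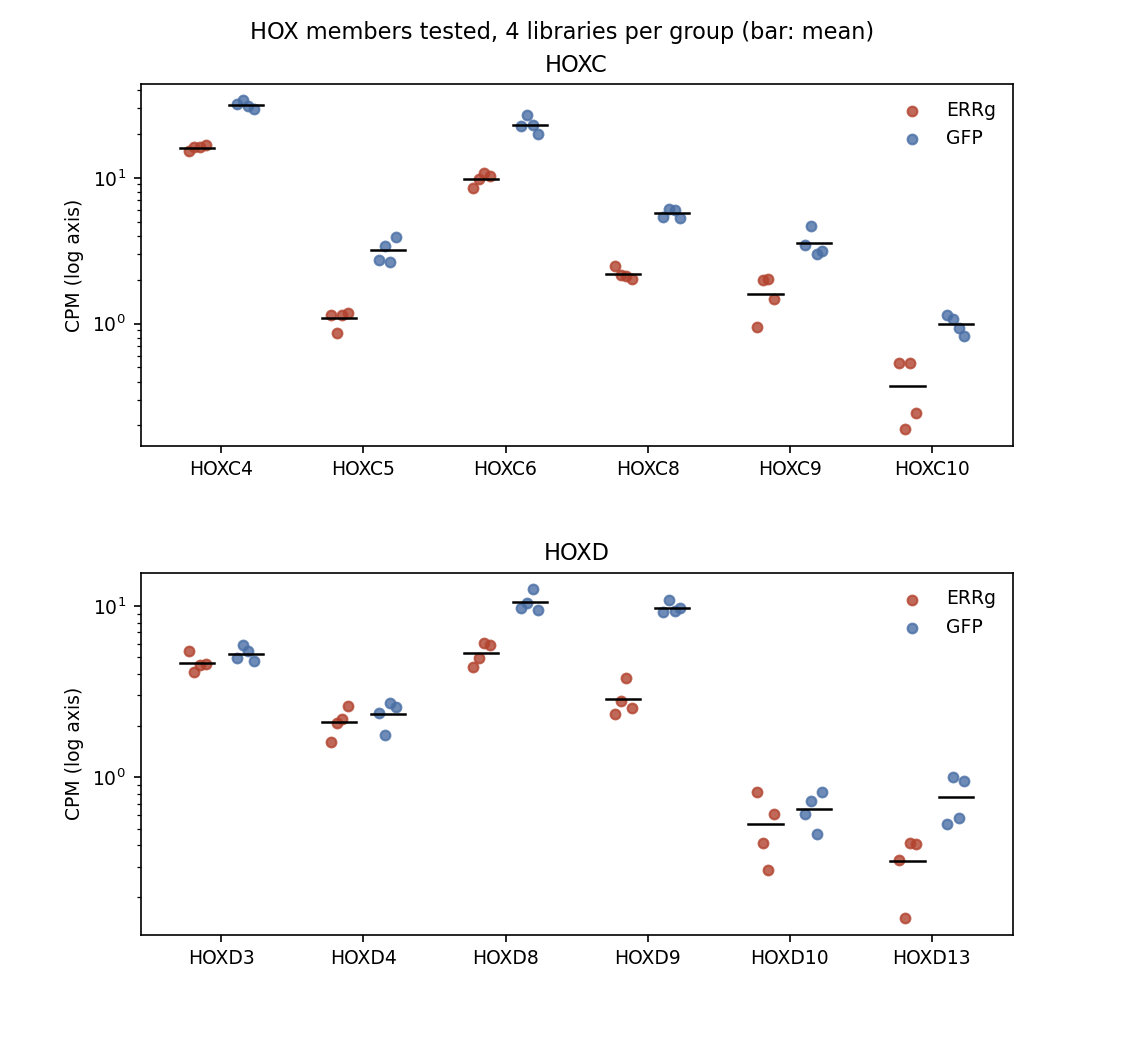
CPM (log axis) of the 12 tested HOX genes in each of 4 ERRg and 4 GFP libraries, HOXC above and HOXD below; points are libraries and bars are group means. The groups do not overlap for the 6 HOXC genes and for HOXD8, HOXD9 and HOXD13, and they overlap for HOXD3, HOXD4 and HOXD10.

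In HOXC, each of the 6 tested genes fell. HOXC4 (chr12:54016931-54056030, plus strand), a gene of the cervical level in vertebrate embryos, had 15.2, 16.2, 16.3 and 16.8 CPM in the ERRg libraries, against 31.9, 33.9, 31.3 and 29.6 CPM in the GFP libraries. The libraries within a group lay close together and the groups were well apart. The log2 fold change was −0.98 (SE 0.09, adjusted p = 9.73e-09 in edgeR).

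HOXC5 (chr12:54032853-54035358) had 1.15, 0.864, 1.15 and 1.18 CPM in ERRg libraries, against 2.75, 3.42, 2.66 and 3.91 CPM in GFP libraries. Its groups did not overlap, and the log2 fold change was −1.55 (SE 0.20, adjusted p = 8.37e-07 in edgeR). In the annotation, 59.9% of the exonic bases of HOXC5 are shared with other gene models on the same strand, where reads may be set aside as ambiguous, and the share of such reads differed between the groups as given above. The part this plays in the HOXC5 value was not tested.

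HOXC6 (chr12:53990624-54030823), active at the thoracic level in embryos, had 8.56, 9.88, 10.8 and 10.3 CPM in ERRg libraries, against 22.5, 27.2, 23.0 and 19.96 CPM in GFP libraries. The lowest GFP library was still far above the highest ERRg library, and the log2 fold change was −1.23 (SE 0.12, adjusted p = 6.81e-09 in edgeR). HOXC4 and HOXC6 overlap on the same strand and share 17.8% and 15.7% of their exonic bases with other gene models. Reads there may be set aside as ambiguous, as for HOXC5, and the part this plays was not tested.

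HOXC8 (chr12:54009106-54012362), which in the mouse specifies motor neuron pools that serve the forelimb, had 2.47, 2.14, 2.13 and 2.03 CPM in ERRg libraries, against 5.39, 6.11, 6.01 and 5.31 CPM in GFP libraries. Its spread within groups was small and its log2 fold change was −1.38 (SE 0.15, adjusted p = 5.61e-08 in edgeR). None of its exonic bases is shared with another gene model on either strand.

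HOXC9 (chr12:53994895-54003337) sets thoracic motor neuron identity in the mouse and has been tied to growth arrest of human neuroblastoma cells under retinoic acid. It had 0.946, 1.99, 2.01 and 1.46 CPM in ERRg libraries, against 3.46, 4.69, 3.02 and 3.17 CPM in GFP libraries. ERRg replicate 1 was lowest and the groups stayed apart, with a log2 fold change of −1.16 (SE 0.22, adjusted p = 7.73e-05 in edgeR). HOXC10 (chr12:53985065-53990279), a lumbar gene, had 0.535, 0.188, 0.534 and 0.244 CPM in ERRg libraries, against 1.14, 1.07, 0.936 and 0.823 CPM in GFP libraries. It is the least covered of the 6, at no more than 13 reads in an ERRg library and 32 in a GFP library, and its log2 fold change was −1.41 (SE 0.34, adjusted p = 8.24e-04 in edgeR).

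In HOXD, HOXD8, HOXD9 and HOXD13 fell, and HOXD3, HOXD4 and HOXD10 did not pass the test. HOXD9 (chr2:176122720-176124937) had 2.35, 2.78, 3.78 and 2.52 CPM in ERRg libraries, against 9.28, 10.8, 9.28 and 9.67 CPM in GFP libraries. With TMM alone this was the largest fold change among the 12 genes, though not in the second fit given below, at a log2 value of −1.77 (SE 0.15, adjusted p = 1.62e-09 in edgeR). Its neighbour HOXD8 (chr2:176129694-176132695) had 4.4, 4.96, 6.07 and 5.94 CPM in ERRg libraries, against 9.74, 10.3, 12.6 and 9.43 CPM in GFP libraries. ERRg and GFP libraries did not overlap for HOXD8, and the log2 fold change was −0.98 (SE 0.14, adjusted p = 1.95e-06 in edgeR).

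HOXD3 (chr2:176136612-176173102), a gene of the hindbrain and neck, had 5.43, 4.13, 4.51 and 4.59 CPM in ERRg libraries, against 4.99, 5.90, 5.43 and 4.77 CPM in GFP libraries. HOXD4 (chr2:176151222-176153226), a hindbrain gene that responds to retinoic acid in the mouse, had 1.60, 2.07, 2.18 and 2.60 CPM in ERRg libraries, against 2.35, 1.76, 2.7 and 2.55 CPM in GFP libraries. The groups overlapped for both genes. Their log2 fold changes were −0.18 (SE 0.14, adjusted p = 0.252 in edgeR) for HOXD3 and −0.14 (SE 0.20, adjusted p = 0.514 in edgeR) for HOXD4, and the sign of both turned under upper-quartile scaling (0.13 and 0.16) and under library totals (0.23 and 0.25).

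At the 5′ end, HOXD10 (chr2:176108790-176119942), which shapes lumbar motor neurons in the mouse, had 0.823, 0.413, 0.287 and 0.610 CPM in ERRg libraries, against 0.607, 0.724, 0.468 and 0.823 CPM in GFP libraries. The groups overlapped, and the log2 fold change was −0.29 (SE 0.34, adjusted p = 0.445 in edgeR) with TMM and 0.11 with library totals. HOXD13 (chr2:176092891-176095938), best known for forming the digits, had 0.329, 0.15, 0.410 and 0.407 CPM in ERRg libraries, against 0.535, 1.00, 0.576 and 0.947 CPM in GFP libraries. Its log2 fold change was −1.23 (SE 0.37, adjusted p = 0.00505 in edgeR), on at most 10 reads in an ERRg library and 29 in a GFP library, and it did not pass when ERRg replicates 3 and 4 were compared alone with the GFP libraries.

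The make-up of the HOXD reads differed between the groups. HOXD9 took 17.9% ± 3.13 of the HOXD reads in ERRg libraries and 33.2% ± 2.39 in GFP libraries. HOXD3 took 29.5% ± 4.56 and 17.9% ± 1.00, and HOXD4 took 13.2% ± 2.09 and 7.99% ± 1.51, in ERRg and GFP libraries. For each of these 3 genes the 4 ERRg shares lay on one side of the 4 GFP shares. In HOXC the shares moved less, with HOXC4 at 51.5% ± 1.44 in ERRg and 46.4% ± 1.37 in GFP libraries, and HOXC6 at 31.5% ± 1.30 and 33.8% ± 1.60. The HOXC4 shares also lay apart, at 49.4% to 52.6% in ERRg and 44.4% to 47.4% in GFP libraries, while those of HOXC6 overlapped.

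Ratios of neighbouring genes within a library do not depend on how libraries are scaled. They were compared, by a choice made after the values were seen, for the 10 adjacent pairs of tested genes by an exact two-sided permutation test over the 70 arrangements of the libraries, for which the smallest p is 0.0286. The log2 ratio of HOXD4 to HOXD8 was −1.34 ± 0.142 in ERRg and −2.17 ± 0.286 in GFP libraries (SD, n = 4 each), and that of HOXD8 to HOXD9 was 0.91 ± 0.231 and 0.10 ± 0.229. The log2 ratio of HOXC4 to HOXC5 was 3.88 ± 0.218 in ERRg and 3.33 ± 0.294 in GFP libraries. In these 3 pairs the groups did not overlap (exact permutation p = 0.0286 each), but none passed adjustment over the 10 pairs (adjusted p = 0.0953 each). They had the smallest p the test can give, so not passing does not show equal ratios. The HOXD9 to HOXD10 ratio was 2.45 ± 0.923 in ERRg and 3.89 ± 0.301 in GFP libraries (exact permutation p = 0.0571, adjusted p = 0.143). The HOXD3 to HOXD4 ratio was 1.15 ± 0.409 in ERRg and 1.18 ± 0.378 in GFP libraries (exact permutation p = 0.771).

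**Figure D3:**
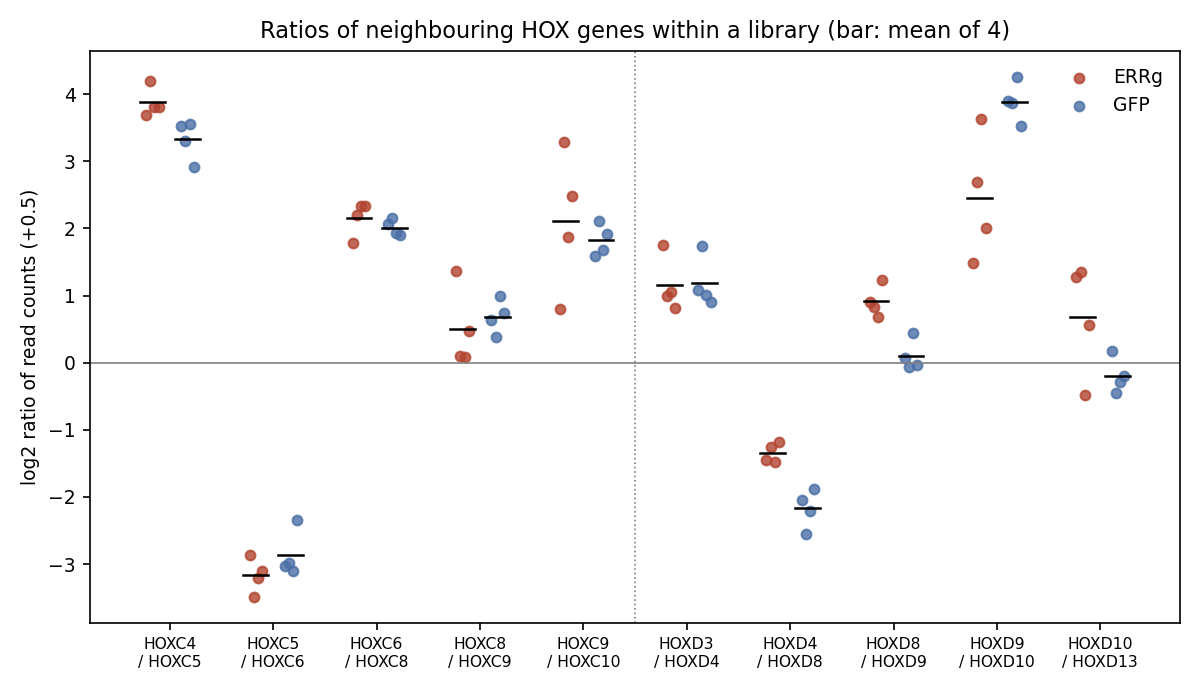
Log2 ratio of the read counts (0.5 added to each) of neighbouring HOX genes in each of 4 ERRg and 4 GFP libraries; points are libraries and bars are means, with HOXC pairs left of the dotted line and HOXD pairs right of it. ERRg points lie above all GFP points for HOXC4 over HOXC5, HOXD4 over HOXD8 and HOXD8 over HOXD9.

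The tested HOX genes differ in GC content, between 48.1% for HOXD10 and 62.7% for HOXD9. A second fit gave each library an offset that follows a gene's GC content, transcript length and genomic span, over 13426 coding genes. In it 5 of the 12 genes were lower in ERRg cells and 2 were higher, against 41.3% of all genes lower and 30.8% higher, and the median log2 fold change was −0.48. Coding genes alone, with TMM and no offsets, already gave a median of −0.88, with the same 9 genes lower and HOXC4 at −0.66. HOXC4, HOXC5, HOXC6 and HOXC8 remained lower, at −0.55, −0.46, −0.65 and −0.65 (edgeR adjusted p = 1.73e-07, 0.0363, 6.12e-07 and 2.55e-04). HOXD9 also remained lower, at −0.50 (adjusted p = 7.63e-04 in edgeR). HOXC9, HOXC10 and HOXD13 had log2 fold changes of −0.16, −0.57 and −0.57 and did not pass (edgeR adjusted p = 0.463, 0.118 and 0.155).

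The 3′ HOXD genes turned round in this second fit. HOXD3 was higher in ERRg cells by 0.74 (SE 0.14, adjusted p = 6.19e-05 in edgeR) and HOXD4 by 0.93 (SE 0.20, adjusted p = 3.04e-04 in edgeR) on the log2 scale, whereas neither passed with TMM alone, over all genes or over coding genes (0.14 and 0.17). HOXD8 had 0.15 (adjusted p = 0.288 in edgeR) and HOXD10 0.19 (adjusted p = 0.619 in edgeR), so the call of HOXD8 was lost. In both fits the fold changes of HOXD3 and HOXD4 lay above those of HOXD8 and HOXD9.

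**Figure D4:**
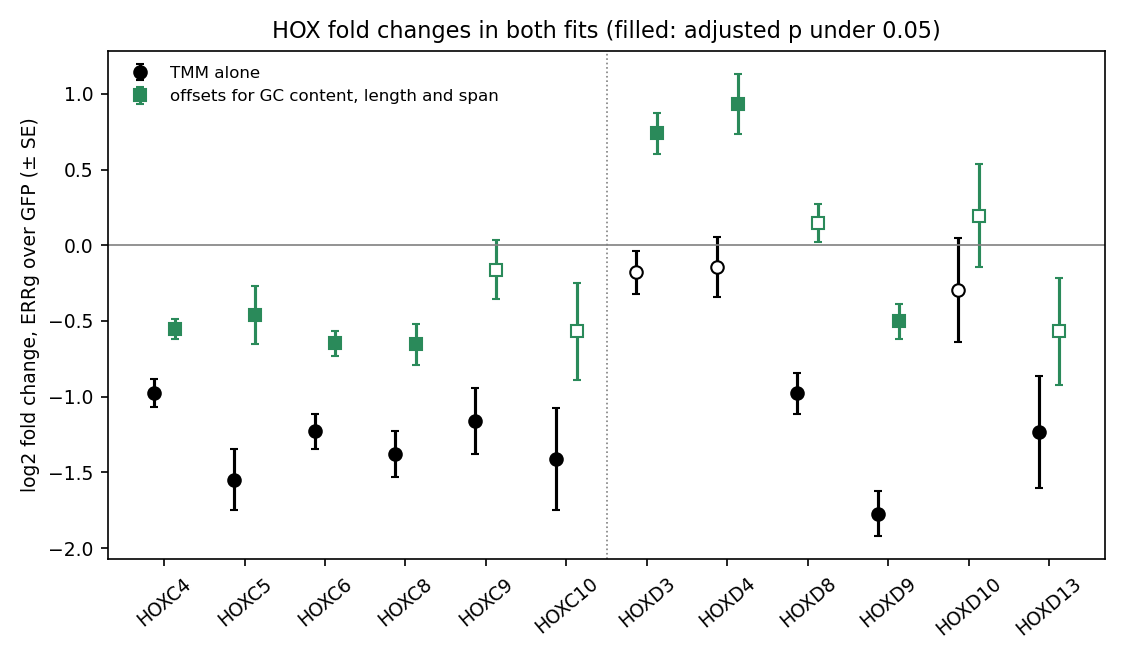
Log2 fold change, ERRg over GFP, of the 12 tested HOX genes with its standard error, from the fit with TMM alone (circles) and from the second fit, which adds offsets for GC content, transcript length and span (squares); filled symbols passed an adjusted p under 0.05. HOXC4, HOXC5, HOXC6, HOXC8 and HOXD9 are filled and below 0 in both fits, and HOXD3 and HOXD4 are filled and above 0 in the second alone.

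Among 18 other transcripts of the HOX loci, 7 are listed at 0, among them HOXA-AS2 and HOXA-AS3, and 2 passed the filter on low counts. HAGLR, a long non-coding RNA on the minus strand between HOXD1 and HOXD3, had 5.10 ± 0.435 CPM in ERRg and 7.53 ± 0.952 CPM in GFP libraries, a log2 fold change of −0.57 (SE 0.13, adjusted p = 7.49e-04 in edgeR). HOXD-AS2, on the minus strand across HOXD8 and HOXD9, had 1.43 ± 0.198 CPM in ERRg and 2.48 ± 0.478 CPM in GFP libraries, a log2 fold change of −0.80 (SE 0.20, adjusted p = 0.00127 in edgeR). HAGLR did not pass under upper-quartile or library-total scaling, and HOXD-AS2 did not with library totals. LINC02381 (chr12:54126098-54142493, plus strand), downstream of HOXC4 and named after its values were seen, had 14.8 ± 2.89 CPM in ERRg and 36.1 ± 4.72 CPM in GFP libraries, a log2 fold change of −1.29 (SE 0.13, adjusted p = 1.29e-08 in edgeR).

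Reads per kb of unshared exon were also set side by side for transcripts on opposite strands, as a description. HOXD1, which overlaps HAGLR on the other strand, had at most 2.08% of the HAGLR density in an ERRg library and 3.49% in a GFP library. HOXD-AS2 stood at 64.0% to 87.9% of the HOXD3 density in ERRg libraries and at 109% to 134% in GFP libraries. Against HOXD9 it stood at 52.6% to 84.4% in ERRg and at 28.4% to 38.5% in GFP libraries. How the counting treated strand was not given in the sources used here, and the 379 exonic bases of HOXD-AS2 that lie opposite HOXD3 cannot be assigned to either gene without it.

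Genes that flank the clusters were counted next to HOX genes near 0 as well as next to transcribed ones. Of 18 tested, 4 were higher and 8 lower in ERRg cells, against 38.7% and 35.9% of all genes, with a median log2 fold change of −0.13 against 0.09 for all genes tested. With the offsets 3 were higher and 9 lower, against 30.8% and 41.3% of all genes. Beside HOXA, SKAP2 had 2.28 ± 0.496 CPM in ERRg and 1.72 ± 0.176 CPM in GFP libraries and did not pass (adjusted p = 0.0727 in edgeR), and TAX1BP1, an autophagy receptor, rose by 1.25 (adjusted p = 7.92e-09 in edgeR). Beside HOXB, SNX11 changed by −1.48 (adjusted p = 6.45e-10 in edgeR). Beside HOXC, the DNA repair gene SMUG1 changed by −1.07 (adjusted p = 1.64e-08 in edgeR), while CBX5, which encodes the heterochromatin protein HP1-alpha, had 0.08 (adjusted p = 0.470 in edgeR). Beside HOXD, ATF2 and LNPK rose by 0.71 and 0.72 (edgeR adjusted p = 4.94e-07 and 3.80e-06), and MTX2 had 0.13 (adjusted p = 0.234 in edgeR). ATP5MC3, on the same side list, was lower in both fits, at −0.63 and, with the offsets, −0.74 (edgeR adjusted p = 8.72e-06 and 0.00118). With the offsets ATF2 and LNPK no longer passed, each at 0.11 (edgeR adjusted p = 0.102 and 0.135), CBX5 was lower at −0.32 (adjusted p = 2.41e-04 in edgeR), and SMUG1 and SNX11 stood at −0.42 and −0.81.

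Partners and regulators of HOX genes were counted from lists, to be read against the 38.7% higher and 35.9% lower of all genes with TMM and the 30.8% and 41.3% with the offsets. Of the TALE cofactors, 7 were tested, 1 was higher and 3 were lower, with a median of −0.14. MEIS3 changed by −1.28 (adjusted p = 7.22e-10 in edgeR) and PKNOX1 by −0.49 (adjusted p = 1.51e-04 in edgeR), and MEIS2 rose by 0.37 (adjusted p = 3.96e-04 in edgeR). With the offsets 0 were higher (1 at an unadjusted p under 0.05) and 6 lower, with MEIS2 lower, at −0.12 (adjusted p = 0.0295 in edgeR), and MEIS3 at −0.16 (adjusted p = 0.0196 in edgeR). PBX2 is listed at 0 in all libraries.

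Of 24 Polycomb genes tested, 8 were higher and 11 lower, against 38.7% and 35.9% of all genes, with a median of −0.06. The lower ones included CBX6, CBX8 and CBX2, chromodomain subunits of the PRC1 complex, at −1.61, −1.50 and −1.42, and PHF19, a PRC2 accessory subunit, at −1.34 (edgeR adjusted p = 8.88e-11, 2.39e-10, 3.67e-10 and 7.92e-10). With the offsets these 4 genes remained lower, at −0.54, −0.48, −0.33 and −0.51. They are named for having the smallest p in the list, and the 8 higher genes are not named. In the second fit 7 of the list were higher and 11 lower, against 30.8% and 41.3% of all genes, with a median of −0.11. RING1 is listed at 0. Of the 11 genes of MLL complexes and H3K27 demethylases, 2 were higher and 7 lower, against the same 38.7% and 35.9%, with a median of −0.42. MEN1, which encodes menin, changed by −1.55 and WDR5 by −0.99 (edgeR adjusted p = 4.80e-10 and 4.45e-08), and by −0.44 and −0.21 with the offsets, where 3 of the list were higher and 6 lower with a median of −0.14. KDM6B, an H3K27 demethylase, changed by −0.84 with TMM and by 0.26 with the offsets, and passed in both directions (edgeR adjusted p = 1.91e-07 and 2.42e-04).

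Of 13 tested factors known to act upstream of HOX genes, 0 were higher and 11 lower, against 38.7% and 35.9% of all genes, with a median of −1.02. The counts of 0 higher and 11 lower were the same at an unadjusted p under 0.05 in edgeR, the DESeq2 test and limma-voom. They included the retinoid receptors RXRA and RARG at −1.70 and −1.50, the retinoic acid carrier CRABP2 at −1.95 and the zinc finger factor MAZ at −1.73 (edgeR adjusted p = 9.97e-11, 4.09e-10, 1.38e-10 and 1.48e-10). With the offsets 1 was higher and 8 lower, against 30.8% and 41.3% of all genes, with a median of −0.44. RXRA, RARG, CRABP2 and MAZ then stood at −0.90, −0.49, −0.88 and −0.32. RXRB, RXRG, CDX2 and CDX4 are listed at 0. Of 6 other homeobox genes tested, 1 was higher and 2 lower, with a median of −0.33, which turned to 0.56 in the second fit, where 3 were higher and 0 lower (0 also at an unadjusted p under 0.05).

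Most tested markers of the cells were lower in ERRg cells with TMM, but not with the offsets. Of 10 sympathetic neuroblast markers, 8 were tested, 0 were higher (also at an unadjusted p under 0.05, and with DESeq2 and limma-voom) and 7 lower, against 38.7% and 35.9% of all genes, with a median of −1.07. Their summed level was 520 to 645 CPM in ERRg and 1046 to 1195 CPM in GFP libraries. DBH, the enzyme that makes noradrenaline, had 3.03 ± 0.659 CPM in ERRg and 14.3 ± 2.08 CPM in GFP libraries, the largest fold change of the 8 with TMM. TH is listed at 0 in all libraries. With the offsets 2 of these markers were higher and 3 lower, against 30.8% and 41.3% of all genes, with a median of 0.02. A list of 14 markers of glia, fibroblasts, blood, endothelium and epithelium summed to 999 to 1123 CPM in ERRg and 1722 to 1957 CPM in GFP libraries. Most of this sum was COL3A1 alone, at 809 ± 39.0 CPM in ERRg and 1432 ± 85.9 CPM in GFP libraries. The sum is therefore not a level for each cell type. None of the 14 was at 0 in all libraries, but the blood markers PTPRC and CD68 had at most 5 and 8 reads in a library and were not tested. Of the 14, 11 were tested with TMM, and 1 was higher and 7 lower, against 38.7% and 35.9% of all genes. With the offsets 4 were higher and 5 lower, against the same 30.8% and 41.3%. The part that a change in cell make-up has in the HOX values was not tested.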

How the data were processed

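RNA-seq of 4 ERRg and 4 GFP libraries of SH-SY5Y cells was used, from rRNA-depleted directional libraries per the labels' protocols. One table of raw counts per gene, not normalised, was deposited by the authors. The submitters' processing notes name STAR 2.7.8a, HTSeq 0.11.3, Trim Galore 0.6.6, DESeq2 and CASAVA, with GRCh38. The annotation release was not given in the sources used here, nor was the counting strand. The 5 summary lines that name no gene entered neither library sizes nor tests, and their shares stand in the text.

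Symbols matched 60463 of 67060 identifiers, and positions, exons and GC content came from GENCODE 29 on GRCh38 (58488 identifiers). Densities use exonic bases not shared on the same strand. Genes were tested with edgeR 4.0.16 in R 4.3.3 (quasi-likelihood, robust, TMM, filterByExpr, two-sided, group as the sole term), with Benjamini-Hochberg adjusted p under 0.05 over the 21993 genes tested of 41858 with a count. Intervals and floors cover counting error only, and the floor is 3 counts. Offsets were natural splines with 5 degrees of freedom per property. The fit was tested on simulated counts. A log2 fold change is ERRg over GFP, and SD is over n = 4. The SE given with edgeR values is the absolute log2 fold change divided by the square root of the quasi-likelihood F statistic.

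Any member with a count, any locus or flanking gene, and the 4 genes with the smallest p in each other list could be named. The members and lists were chosen with earlier results of these data known, and the lists support nothing on their own. Alternatives covered scaling, tool (DESeq2 1.42.0, limma 3.58.1), filter, coding genes alone, offsets, the replicate number as a block, subsets of libraries and a stricter threshold. Neighbour ratios were compared by exact permutation, with 2 alternatives chosen after seeing the data.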

Additional observations from a re-analysis of the deposited data

Results flagged for a closer look

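HOXC5 in ERRg replicate 2 had 0.864 CPM, while the other 3 ERRg libraries had 1.15 to 1.18 CPM. The gap to the nearest library was 0.905 of the group's range. Of 32 groups of 4 libraries screened, this was the only one so far from the others, and chance alone marks about 1 group in 20. The HOXC5 call held without that library.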

How the results depend on the processing

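With TMM, 9 HOX genes were lower and 0 higher in ERRg cells. Leaving out each library in turn gave 9 to 9 lower and 0 to 0 higher, a median log2 fold change of −1.33 to −1.08, and 73 to 78 genes called over all lists, against 75. The 9 calls were also the same genes with DESeq2 size factors, upper-quartile factors, library totals, the DESeq2 test, limma-voom, no filter, coding genes alone and ERRg replicates 1 and 2 alone. A filter of 1 CPM in 4 libraries tested 9 genes and called 7 lower, since HOXC10 and HOXD13 were not tested, and ERRg replicates 3 and 4 alone gave 8, without HOXD13. The median log2 fold change of −1.19 became −0.89 with upper-quartile factors, −0.79 with library totals, −0.88 with coding genes alone, −1.01 with ERRg replicates 3 and 4 alone, −0.61 with GC offsets and −0.48 with the full offsets. The full offsets left 5 lower and 2 higher, and GC offsets alone 7 lower and 2 higher. The cause was not tested. HOXD3 became 0.13 with upper-quartile factors, 0.23 with library totals, 0.14 with coding genes alone, 0.74 with the full offsets and 0.80 with GC offsets. HOXD4 became 0.16, 0.25, 0.17, 0.93 and 0.77 in the same order, and 0.014 with ERRg replicates 3 and 4 alone. HOXD10 became 0.0097 with upper-quartile factors, 0.11 with library totals, 0.021 with coding genes alone and 0.19 with the full offsets, and HOXD8 became 0.15 with the full offsets. Same-numbered ERRg and GFP libraries did not deviate together (correlations of −0.16 to 0.09), so the numbers were not taken as pairs. The replicate block gave 9 lower, 0 higher and a median of −1.20, and with the full offsets 5 lower, 2 higher and a median of −0.48, with HOXD3 at 0.74, HOXD4 at 0.93, HOXD8 at 0.15 and HOXD10 at 0.17. HOXC10, HOXD10 and HOXD13 rest on few reads. Without the filter 29 members were tested and the same 9 were lower.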
